A study of Mus musculus with 4 samples.

Results

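The genes described here are the adult globins Hba-a1, Hba-a2, Hbb-bs and Hbb-bt, together with Alas2 and Slc4a1, in bulk RNA of cells taken from the spinal cord of mice with experimental autoimmune encephalomyelitis (EAE). EAE is a disease that resembles multiple sclerosis and is started by immunization against myelin. The genes were chosen by name, as genes that mark red cells and so blood in a preparation. Of 7 named genes, 6 had a row among the 32246 genes of the table, and the other was not analysed here. All mice were C57BL/6 with EAE, and treatment began on day 8 after immunization and was repeated every other day. The Scr group received a scrambled micropeptide and the P155 group received microPEP155, with 2 libraries each, numbered 4 and 5 in both groups. Cells were collected on a Percoll density gradient as mononuclear cells, and poly(A) RNA was sequenced. The labels give neither the age of the mice nor whether each library came from its own animal, so the p-values measure the spread between libraries, which may be technical.

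Hemoglobin, the oxygen carrier of red cells, is a tetramer of α and β globin chains, each of which holds a heme group. The globin genes lie in an α cluster and a β cluster, and in the adult they are transcribed in erythroid precursors under factors such as GATA1 and KLF1. Mouse reticulocytes and young red cells have lost their nucleus but still carry globin mRNA, so blood that is left in a tissue brings globin transcripts with it. Neurons and other cells have also been reported to hold small amounts of globin mRNA. Alas2 encodes the erythroid form of 5-aminolevulinate synthase, the first and rate-limiting enzyme of heme synthesis. Slc4a1 encodes band 3, the anion exchanger that also anchors the red cell membrane to its skeleton.

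The libraries held 63875412 and 64702948 reads in Scr replicates 4 and 5, and 63862745 and 30777553 reads in P155 replicates 4 and 5. P155 replicate 5 was the shallowest and had a read for 24409 genes, against 28064 to 28432 in the others. Mitochondrial genes took 8.54% to 12.0% of the reads. The leukocyte gene Ptprc, which encodes CD45 and was named outside the rule to check the cell type, was present at log2 11.33 to 12.19, and the macrophage and microglia gene Csf1r at 13.05 to 14.25. Transcripts of neural cells were also abundant. Per kilobase of exon, the astrocyte gene Gfap averaged 47995 normalized reads, so the RNA was not that of mononuclear leukocytes alone. Leukocyte genes differed widely on this scale, with 203 for Ptprc, 2487 for Csf1r and 41477 for the myeloid gene Lyz2. A contrast of neural with leukocyte genes therefore depends on the pair chosen.

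The proximal promoters of the globin genes and of Alas2 are shown as a description of the short motifs they hold. Whether the motifs have to do with the levels over the libraries was not tested. RefSeq entries (GRCm38.p6) matched 5 of the 6 genes. Each window holds the 250 bases before the RefSeq start, read 5′ to 3′ on the strand of the gene. The gene coordinates given further below are from GENCODE and begin further upstream, so each window lies partly inside its gene as given there. Distances of motifs hold for the RefSeq start only. Capitals mark the GATA forms AGATAA or AGATAG or TGATAA or TGATAG, then CACCC, then CCAAT, and the TATA forms TATAAA or TATAAG, on either strand, with overlapping matches kept. The windows are chr11:32283422-32283671 on the plus strand for Hba-a1, chr7:103827929-103828178 on the minus strand for Hbb-bs, chr7:103813924-103814173 on the minus strand for Hbb-bt and chrX:150547167-150547416 on the plus strand for Alas2.
Hba-a1: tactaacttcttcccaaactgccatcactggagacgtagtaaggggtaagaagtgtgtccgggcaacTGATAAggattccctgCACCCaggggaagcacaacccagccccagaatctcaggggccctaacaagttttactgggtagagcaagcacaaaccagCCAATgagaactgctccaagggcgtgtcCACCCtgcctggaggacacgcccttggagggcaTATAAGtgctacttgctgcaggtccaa
Hbb-bs: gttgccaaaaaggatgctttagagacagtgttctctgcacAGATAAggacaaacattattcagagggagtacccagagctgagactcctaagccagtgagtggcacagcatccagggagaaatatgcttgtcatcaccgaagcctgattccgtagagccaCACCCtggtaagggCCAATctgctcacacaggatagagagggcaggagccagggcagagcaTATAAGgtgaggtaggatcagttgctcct
Hbb-bt: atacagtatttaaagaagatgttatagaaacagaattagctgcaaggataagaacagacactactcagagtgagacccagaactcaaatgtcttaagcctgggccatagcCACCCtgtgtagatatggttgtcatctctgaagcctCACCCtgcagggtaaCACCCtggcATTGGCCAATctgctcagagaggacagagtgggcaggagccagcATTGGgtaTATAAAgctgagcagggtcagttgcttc
Alas2: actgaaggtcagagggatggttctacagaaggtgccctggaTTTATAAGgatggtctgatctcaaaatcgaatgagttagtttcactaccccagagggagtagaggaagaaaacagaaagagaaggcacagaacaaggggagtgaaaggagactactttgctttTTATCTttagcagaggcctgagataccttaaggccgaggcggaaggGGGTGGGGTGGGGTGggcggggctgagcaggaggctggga

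The Hba-a2 window, chr11:32296242-32296491 on the plus strand, was identical to that of Hba-a1 over all 247 aligned bases and is not printed. The windows of Hbb-bs and Hbb-bt matched at 178 of 243 aligned bases, or 73.3%. In Hba-a1 a GATA form stood 183 bases before the start, CCAAT 88 bases and TATAAG 27 bases before it. In Hbb-bs the order was alike, with the GATA form at 210 bases, CACCC at 90, CCAAT at 76 and TATAAG at 29. The Hbb-bt window held no GATA form but 3 CACCC, 3 CCAAT on the 2 strands and a TATAAA at 28 bases. The Alas2 window held 3 CACCC on the opposite strand within 40 bases of the start, an AGATAA on the opposite strand at 86 bases, no CCAAT, and a TATAAA on the opposite strand at 209 bases that overlaps a TATAAG at 207. Such motifs are common: of 32851 RefSeq windows of this length, 26.5% held a GATA form, 52.0% CACCC, 33.8% CCAAT, 12.4% TATAAA and 6.65% TATAAG. A match describes the letters and says nothing of binding in these cells.

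The copies within each globin family are hard to tell apart by reads. The transcripts of Hba-a1 and Hba-a2 were identical at 537 of 538 aligned bases (99.8%), and those of Hbb-bs and Hbb-bt at 580 of 626 (92.7%). Of the windows of 100 bases in each transcript, 56.5% of those of Hba-a1 and 74.5% of those of Hba-a2 also lay in the other α gene. The shares were 62.6% for Hbb-bs and 54.8% for Hbb-bt, and 0 for Alas2 and Slc4a1. How the authors assigned reads that fit more than 1 gene is not given in the sources used here, so the split of reads between copies is uncertain, while the family sums depend on it less.

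Levels below are log2(normalized reads + 1), the scale of the deposited table, in the order Scr replicate 4, Scr replicate 5, P155 replicate 4 and P155 replicate 5. Hba-a1 (ENSMUSG00000069919, chr11:32283511-32284465 on the plus strand of mm10), one of the duplicated adult α globin genes, had levels of 15.43, 14.85, 13.72 and 15.22. Its neighbour Hba-a2 (ENSMUSG00000069917, chr11:32296489-32297298, plus strand) encodes an α chain as well and had levels of 15.11, 14.52, 13.36 and 14.95. For both α genes P155 replicate 4 was the lowest library and Scr replicate 4 the highest, and the other P155 library lay between the Scr libraries, so the groups overlapped. In reads, Hba-a1 was seen 54288, 35086, 15974 and 22635 times, so its values carried little counting error even in the shallowest library.

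Hbb-bs (ENSMUSG00000052305, chr7:103826534-103828096, minus strand), one of the paired adult β globin genes of this strain, had levels of 15.55, 15.01, 14.24 and 15.51. Hbb-bt (ENSMUSG00000073940, chr7:103812524-103813996, minus strand), the other adult β globin gene, had levels of 14.60, 13.85, 12.83 and 14.38. The order of the libraries was that of the α genes, and Scr replicate 4 and P155 replicate 5 were nearly level for Hbb-bs, 0.04 apart.

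Alas2 (ENSMUSG00000025270, chrX:150547375-150570638, plus strand) had levels of 11.31, 10.25, 9.45 and 10.82. Slc4a1 (ENSMUSG00000006574, chr11:102348824-102366203, minus strand) had levels of 11.83, 8.996, 7.81 and 10.02. Both genes put the libraries in the same order as the globins, but Slc4a1 was set apart by Scr replicate 4, which stood 1.81 above the next library. Slc4a1 had 4462 reads in that library against 604, 265 and 615 in the others.

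**Figure D1:**
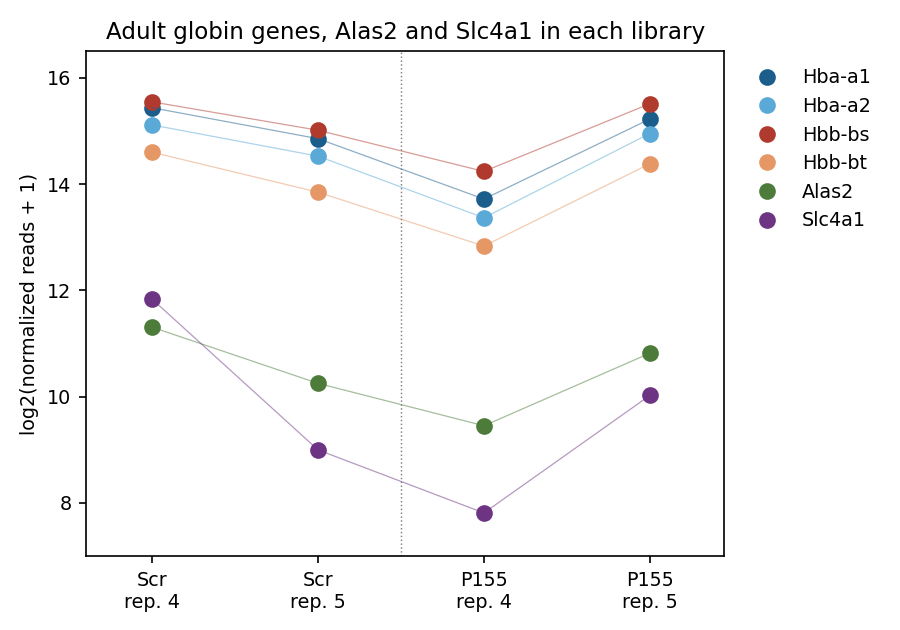
Level of the 4 adult globin genes, Alas2 and Slc4a1 in each library, as log2(normalized reads + 1). Each point is 1 library and thin lines join the points of a gene, and in each gene Scr replicate 4 is the highest and P155 replicate 4 the lowest, with P155 replicate 5 between the Scr libraries.

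Per kilobase of exon, which allows levels of different genes to be set side by side, Hbb-bs was the highest of the 6 genes in all 4 libraries, with 25151 to 62303 normalized reads and a mean of 47813. The α genes followed with means of 38662 for Hba-a1 and 37925 for Hba-a2. They changed places between libraries, with Hba-a1 above Hba-a2 in 3 libraries and below it in P155 replicate 5, so the α genes did not differ beyond their spread. Hbb-bt averaged 24236 and was below both α genes in each library. Alas2, at 650 (291 to 1053), and Slc4a1, at 277 (45.7 to 744), came last, in that order in all libraries. The lengths used are the union of all annotated exons, which is longer than the main transcript for each of these genes except Hbb-bt. For Hba-a1 it is 812 bases against 699, and for Hba-a2 667 against 554. The order of the α genes per kilobase may therefore depend on the lengths used, and in reads Hba-a1 was above Hba-a2 in all 4 libraries. Levels of the globin genes per kilobase, and so their order, also depend on how reads shared by the copies were counted, which is not given.

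The 6 genes together took 0.304% and 0.188% of the reads of Scr replicates 4 and 5, and 0.0957% and 0.271% of those of P155 replicates 4 and 5. For the first of these the 95% Wilson interval was 0.303% to 0.306%, and such intervals cover counting error only. The spread between libraries was thus far wider than counting error, and the groups overlapped, at 0.246% ± 0.0821 in Scr and 0.183% ± 0.124 in P155 (SD, n = 2 each). Globins made up nearly all of it, with 0.292%, 0.185%, 0.0940% and 0.265% of the reads. Alas2 and Slc4a1 added 0.0118%, 0.00316%, 0.00171% and 0.00547%. In bulk RNA, fewer cells of a type and less RNA per cell cannot be told apart, so a low share does not say how many red cells were present.

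**Figure D2:**
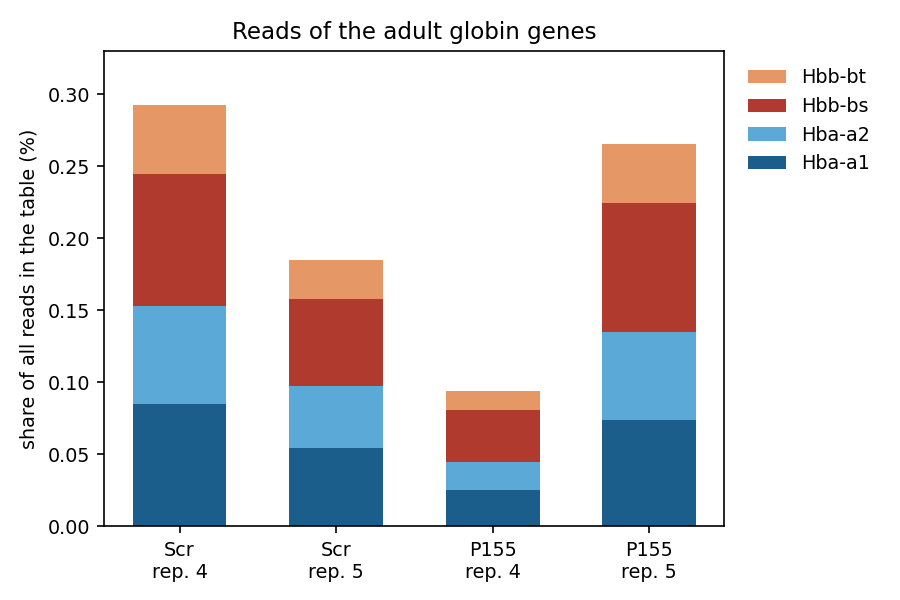
Share of all reads, in percent, taken by each adult globin gene, stacked, in each library. The globins took 0.292% and 0.185% in Scr replicates 4 and 5, and 0.0940% and 0.265% in P155 replicates 4 and 5, so the P155 libraries stand on either side of Scr replicate 5.

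P155 was then compared with Scr, which asks whether the peptide treatment came with a change in these transcripts. Mean levels were lower in P155 for all 6 genes, as for 14471 of the 27079 genes tested, and none of the 6 passed the test. Hba-a1 averaged 15.14 ± 0.41 under Scr against 14.47 ± 1.06 under P155 (SD, n = 2 each), which differ by -0.67 on the log2 scale (SE 0.55, 95% interval -2.12 to 0.77, limma adjusted p = 0.861). Hba-a2 averaged 14.82 ± 0.42 and 14.16 ± 1.12, a difference of -0.66 (SE 0.57, limma adjusted p = 0.861). Both genes had more than 2 times the spread in P155 that they had in Scr, and the interval for Hba-a1 covers lower as well as higher levels.

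For the β genes the differences were of like size and sign. Hbb-bs averaged 15.28 ± 0.38 under Scr against 14.87 ± 0.90 under P155, which differ by -0.41 (SE 0.48, 95% interval -1.66 to 0.85, limma adjusted p = 0.881). Hbb-bt averaged 14.22 ± 0.53 and 13.61 ± 1.09, a difference of -0.62 (SE 0.58, limma adjusted p = 0.864). In each globin gene the SD within P155 was larger than the difference between the groups.

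Alas2 averaged 10.78 ± 0.75 under Scr against 10.13 ± 0.96 under P155, which differ by -0.64 (SE 0.59, 95% interval -2.19 to 0.91, limma adjusted p = 0.861). Slc4a1 had the largest difference of the 6 genes, with 10.41 ± 2.00 in Scr, 8.92 ± 1.56 in P155 and a difference of -1.50 (SE 1.19, 95% interval -4.64 to 1.65, limma adjusted p = 0.861). That difference was also smaller than either group's SD. In the authors' deposited table the FDR was 0.936 for each of the 6 genes, against 171 genes of the 27079 tested (0.631%) with an FDR under 0.05 there.

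**Figure D3:**
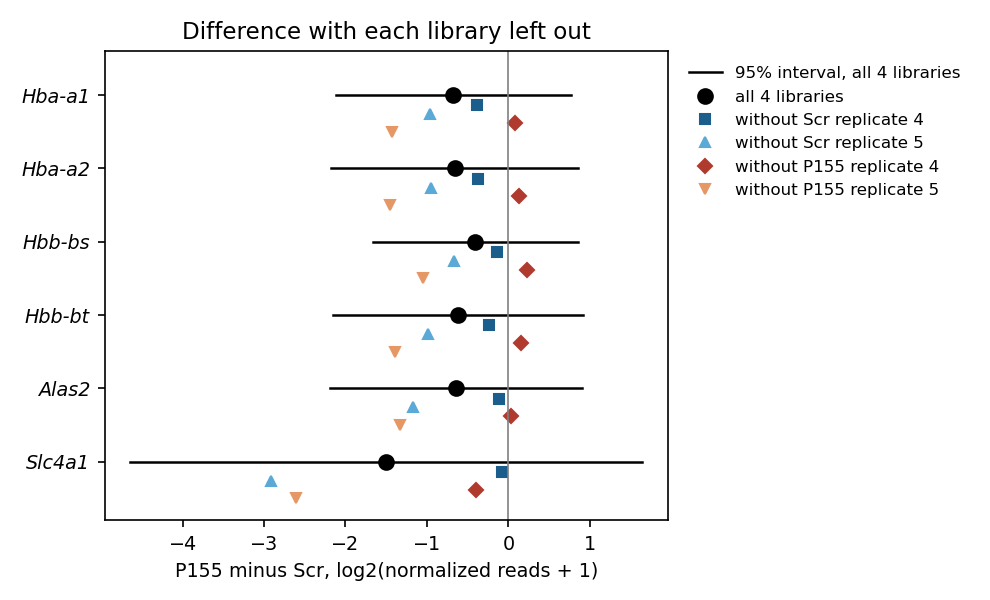
Difference P155 minus Scr in log2 level for each gene, with its 95% interval from limma, which runs across 0 in all 6 genes, and the difference with 1 library left out. The differences over all libraries lie between -1.50 for Slc4a1 and -0.41 for Hbb-bs, and without P155 replicate 4 those of the globins and Alas2 lie above 0.

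Against the whole table, 0 of the 6 genes had a limma adjusted p under 0.05, as did 0 of 27079 genes tested (0%). At an unadjusted p under 0.05 limma called 0 of the 6 genes, beside 861 of all genes lower (3.18%) and 318 higher (1.17%) in P155, and limma-voom on the recovered reads also called 0 genes after adjustment and 1072 before it. None of the 6 genes (0) had its P155 libraries both under the lower Scr library, against 5298 of all genes (19.6%), and 0 had them both over the higher Scr library, against 4105 (15.2%).

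The pattern over libraries was the same in all 6 genes, Scr replicate 4 above P155 replicate 5, then Scr replicate 5, then P155 replicate 4. Of all genes tested, 527 (1.95%) had this order. The α and β pairs share sequence and, with the others, the same 4 libraries, so the 6 genes are not 6 independent observations of it. The contrast between the groups depended on which libraries were set against each other: P155 replicate 4 was below Scr replicate 4 by 1.31 to 4.02 log2 units, while P155 replicate 5 was above Scr replicate 5 by 0.37 to 1.03. Without P155 replicate 4, the difference turned to 0.08 for Hba-a1, 0.13 for Hba-a2, 0.23 for Hbb-bs, 0.16 for Hbb-bt and 0.04 for Alas2, and stayed negative only for Slc4a1, at -0.39. Without P155 replicate 5 it moved the other way, to -1.04 to -1.45 for the globins and Alas2 and -2.60 for Slc4a1. Such fits leave a group with a lone library, whose spread cannot be measured. Leaving out a Scr library moved Slc4a1 as well, to -0.08 without replicate 4 and to -2.91 without replicate 5.

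The distance between the highest and the lowest library was 3.29-fold for Hba-a1, 3.36-fold for Hba-a2, 2.48-fold for Hbb-bs, 3.40-fold for Hbb-bt and 3.61-fold for Alas2 in normalized reads. Slc4a1 spanned 16.2-fold. A range at least that of Hbb-bs, the smallest of the 6, was found in 2320 of 17107 genes with a mean of at least 50 normalized reads (13.6%). The range of Slc4a1 was reached by 148 of those genes (0.865%).

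Ratios between the genes show how far they kept step. Reads of Hba-a2 per read of Hba-a1 were 0.799, 0.796, 0.783 and 0.829 in the order above, a narrow span. Reads of Hbb-bt per read of Hbb-bs varied more, at 0.518, 0.446, 0.378 and 0.457, and the Wilson-based interval of 0.511 to 0.526 in Scr replicate 4 did not meet that of 0.368 to 0.387 in P155 replicate 4. The sum of α reads was 1.10, 1.11, 0.903 and 1.03 times that of β reads, so only in P155 replicate 4, the library with the fewest globin reads, was α below β. These ratios depend on how reads shared by the copies were treated. The α to β ratio depends on it least if such reads were kept within a family, but not if they were dropped.

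Set against the globins, Alas2 kept its proportion more closely than Slc4a1. Alas2 had 16.6, 12.0, 13.8 and 13.1 reads per 1000 globin reads. Slc4a1 had 23.9, 5.05, 4.41 and 7.53, and its interval in Scr replicate 4, 23.2 to 24.6, lay above those of the other 3 libraries, the highest of which was 6.96 to 8.15. Scr replicate 4 was thus the only library with more Slc4a1 than Alas2 reads, at 0.695 Alas2 reads per Slc4a1 read against 1.73 to 3.13 elsewhere.

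Other genes of the red cell lineage were read from lists of 56 genes, of which 51 had a row. Mean levels were lower in P155 for 34 and higher for 17, beside 14471 lower and 12608 higher of all genes tested. The median log2 difference was -0.23, beside -0.03 over all genes tested. After adjustment limma called 0 of the 51. At an unadjusted p under 0.05 it called 3 lower and 0 higher, beside 3.18% lower and 1.17% higher of all genes tested. The library order of the globins was found in 16 of them, or 31.4%, beside the 1.95% of all genes.

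**Figure D4:**
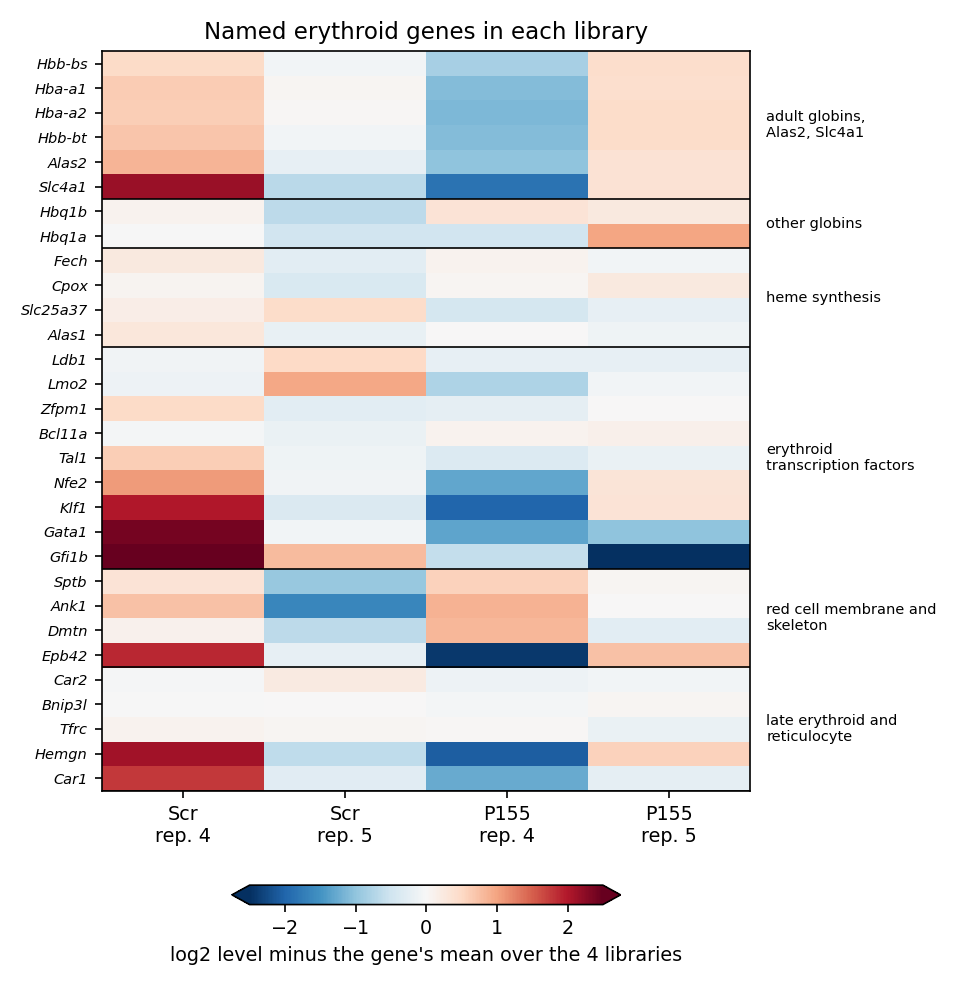
Log2 level of each erythroid gene named in the text minus its mean over the 4 libraries, with genes in rows, grouped by list, and libraries in columns. Red marks levels above the mean of the gene, as for Klf1, Epb42 and Hemgn in Scr replicate 4, and blue levels below it, as for the same genes in P155 replicate 4, while Car2, Bnip3l and Tfrc are near their mean in all libraries.

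Among other globins, only the θ genes Hbq1b and Hbq1a had a row, and the embryonic globins were not analysed here. Hbq1b had levels of 5.71, 4.97, 5.97 and 5.87, and Hbq1a 4.04, 3.58, 3.58 and 5.05, on 13 to 73 reads for the pair, whose near-identical copies may share reads. Neither shared the order of the adult globins, and both had a higher mean in P155, with 0 called by limma.

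Erythroid transcription factors had 9 of 9 genes with a row, 8 of them with a lower mean in P155, a median difference of -0.84 and 0 called after adjustment. The highest by mean level were Ldb1, Lmo2 and Zfpm1, which are also expressed outside the red cell lineage. Ldb1, a bridging cofactor, had levels of 12.19, 12.76, 12.07 and 12.06, and Lmo2, its partner, 10.59, 11.69, 9.95 and 10.64, both highest in Scr replicate 5. Zfpm1, the GATA1 cofactor FOG1, had 9.96, 9.23, 9.27 and 9.50. The next 5 genes were named after their values were seen, and their ranges differed widely. Tal1, a factor of blood precursors, had levels of 9.22, 8.50, 8.27 and 8.44, and Bcl11a, a repressor of fetal and embryonic globins that neurons also express, spanned 0.30 log2 units with a higher mean in P155. Klf1, the activator of adult β globin, had levels of 7.58, 5.22, 3.58 and 5.91, in the order of the globins. Gata1 had 7.07, 4.62, 3.36 and 3.68, on 163, 28, 11 and 7 reads, so both P155 libraries were below both Scr libraries. Gfi1b, a repressor of erythroid and platelet precursors, had 64, 15, 5 and 0 reads, where a count of 0 allows up to 5.06 normalized reads.

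Heme synthesis genes stayed closer together, with a median range of 0.62 log2 units over the libraries beside 0.88 for all genes tested. Of 10 genes 6 had a lower mean in P155, the median difference was -0.16, and limma called 0 after adjustment. Fech, which inserts iron into the ring, had levels of 12.14, 11.63, 11.98 and 11.82, and Cpox, an earlier enzyme, 11.72, 11.29, 11.72 and 11.90. Slc25a37, the mitochondrial iron importer mitoferrin 1, had 11.77, 12.06, 11.16 and 11.40. These 3 did not follow the globins. Alas1, the form of the first enzyme used outside red cells and named outside the rule as its counterpart, spanned 10.82 to 11.28, against 9.45 to 11.31 for Alas2.

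Membrane and skeleton genes had a median range of 2.68 log2 units, the widest of the erythroid lists, and 8 of 16 had the order of the globins. Means were lower in P155 for 10 and higher for 6, with a median difference of -0.28 and 0 called by limma at either p. The highest by mean level, Sptb, Ank1 and Dmtn, encode a spectrin, ankyrin 1 and dematin, and all are expressed in neurons as well. Ank1 had levels of 13.22, 10.85, 13.35 and 12.50, so P155 replicate 4 was the highest library and Scr replicate 5 the lowest. Sptb, at 13.40, 12.11, 13.64 and 13.11, and Dmtn, at 12.41, 11.64, 13.13 and 12.03, had the same highest and lowest library. Epb42, protein 4.2 bound to band 3, has a narrower link to red cells and was named after its values were seen. It had levels of 8.53, 6.44, 4.23 and 7.38. This is the order of the globins, with Scr replicate 4 more than 1 log2 unit above every other library, as for Slc4a1.

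Late erythroid and reticulocyte genes split in the same way. Of 14, 10 had a lower mean in P155, the median difference was -0.18, 5 had the order of the globins, and limma called 0 after adjustment. The highest by mean level were Car2 at 14.34 to 14.71, the mitophagy receptor Bnip3l at 13.15 to 13.25 and the transferrin receptor Tfrc at 12.72 to 12.98, which are expressed in many cells. Hemgn and Car1 were named after their values were seen. Hemgn, a nuclear protein of blood precursors, had levels of 8.87, 6.13, 4.72 and 7.35. Car1, the abundant carbonic anhydrase of red cells, had 7.69, 5.64, 4.67 and 5.69.

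Genes that take up and break down hemoglobin, which macrophages use after red cells are lost, had 12 of 12 genes with a row and a median log2 difference of -0.22, with 0 called by limma after adjustment. The highest by mean level were the ferritin chains Fth1, at 18.44, 18.79, 18.59 and 18.61, and Ftl1, at 14.65, 15.58, 14.46 and 14.49, and Lrp1, the receptor for hemopexin with bound heme, at 14.91, 14.70, 15.06 and 14.43. None of these followed the globins. Of genes named after their values were seen, heme oxygenase 1 (Hmox1) was highest in Scr replicate 5, at 10.81, against 10.17 in Scr replicate 4, 10.06 in P155 replicate 5 and slightly less in P155 replicate 4, and Cd163, the scavenger receptor for hemoglobin, spanned 7.75 to 8.16. Hp, which encodes haptoglobin and was named outside the rule, was the only gene of the list in the order of the globins. Its levels were 10.55, 9.41, 7.52 and 9.68, and it is also made by neutrophils.

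Markers of other cells that blood or the tissue could bring moved with the globins in part, and their part in the result was not tested. All 14 neutrophil genes had a row and a lower mean in P155, 10 of 14 had the order of the globins (71.4%), and the median difference was -1.37. S100a9, a calcium-binding protein of neutrophils, had levels of 14.45, 12.59, 11.08 and 13.24, S100a8 13.73, 11.97, 10.23 and 12.76, and the granule protein Ngp 13.71, 11.74, 10.25 and 12.46. Summed over the list, normalized reads were 78126 and 34727 in Scr and 11625 and 34558 in P155, beside 158521 and 102662, and 51553 and 140712, for the 6 red cell genes. Scr replicate 4 was the highest and P155 replicate 4 the lowest library for both sums.

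Platelet genes had 13 of 13 with a row, 12 with a lower mean in P155, 3 in the order of the globins and a median difference of -0.93. Their summed normalized reads were 3527 and 2386 in Scr and 1292 and 1923 in P155, so here the groups did not overlap. Itgb3, an integrin chain, had levels of 9.85, 9.16, 9.07 and 9.01, its partner Itga2b 9.26, 8.80, 7.73 and 8.48, and Gp1bb, a chain of the receptor for von Willebrand factor, 7.90, 9.19, 7.53 and 7.65. The platelet chemokine Ppbp, named after its values were seen, followed the globins at 9.51, 7.61, 5.31 and 8.14.

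Mononuclear leukocyte, neural and endothelial genes had other orders. All 10 leukocyte genes were highest in Scr replicate 5, and none had the order of the globins. A lower mean in P155 was found in 10 of 10, beside 14471 of the 27079 genes tested. Their median difference was -0.67, beside -0.65 for the 6 red cell genes. Of the 10 genes, 6 had both P155 libraries below both Scr ones, beside 19.6% of all genes tested. Their summed normalized reads were 85893 and 155611 in Scr and 77170 and 50598 in P155. Lyz2, the lysozyme of myeloid cells, led them at 15.59, 16.60, 15.35 and 14.77. For the 9 neural genes the median difference was 0.13, the sums ran from 878188 to 993691, and 0 had the order of the globins. The 6 endothelial genes had a median difference of -0.23, with 0 in that order. Limma called 0 genes of any of these lists after adjustment. In the authors' deposited table the FDR was under 0.05 for 1 leukocyte, 1 endothelial and 0 neural genes. It was also under 0.05 for 2 neutrophil and 0 platelet genes, beside 0.631% of all genes tested.

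**Figure D5:**
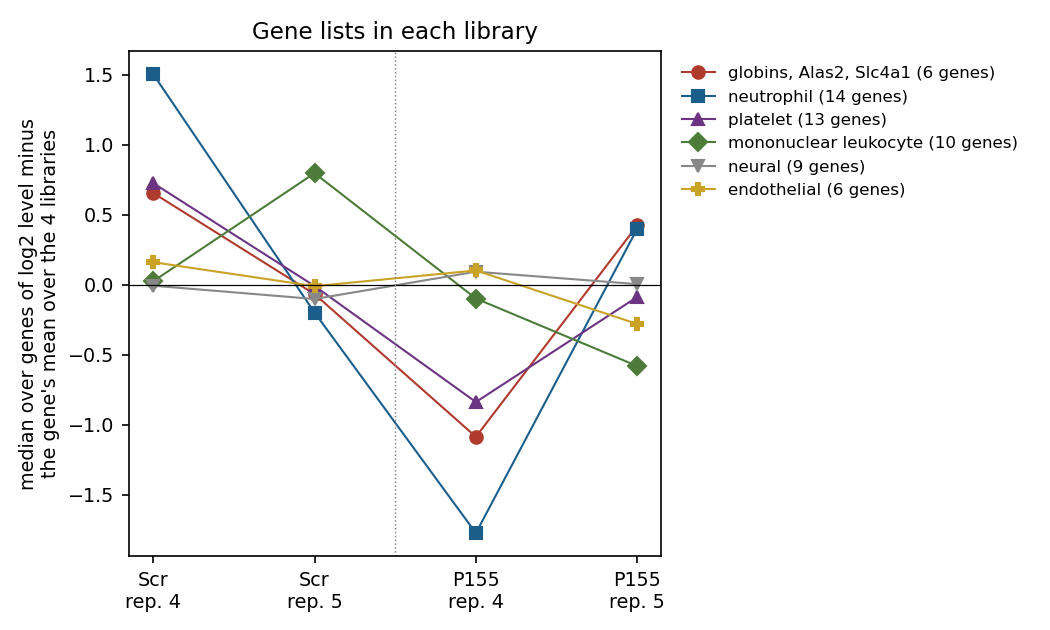
Median over the genes of each list of the log2 level minus the gene's mean over the 4 libraries, with lines joining the points of a list. The red cell genes run 0.66, -0.07, -1.09 and 0.42, the neutrophil genes 1.50, -0.20, -1.77 and 0.40, and the leukocyte genes 0.03, 0.80, -0.10 and -0.58, so that the leukocyte peak is in Scr replicate 5.

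The 5 genes whose levels were most like the mean pattern of the 6 were named by the root mean square distance of log2 levels, each centred on its own mean, over the 4 libraries. With so few libraries many genes can lie close, and the distances are a description. Aqp1, the water channel of red cells and of other cells, was the nearest at 0.0529, with levels of 11.34, 10.39, 9.25 and 10.83. Avil, the actin regulator advillin, followed at 0.0877 with levels of 11.66, 10.64, 9.81 and 11.19. Nfe2, the NF-E2 subunit of erythroid and platelet precursors, came next at 0.125 with 8.26, 7.11, 5.89 and 7.50, and is one of the factors listed above. Knl1, a kinetochore protein, was at 0.144 and Rgs18, a regulator of G-protein signalling in platelets, at 0.156. The 6 genes define the pattern themselves, so their own distances are partly set by it. Alas2 lay at 0.0932, Hbb-bt at 0.128, Hba-a2 at 0.172, Hba-a1 at 0.175 and Hbb-bs at 0.275. Of 14628 other genes compared, 2, 3, 7, 8 and 34 were closer than these, in that order. Slc4a1, with its wider range, lay at 0.764, and 3583 other genes were closer.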

How the data were processed

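RNA of 2 Scr and 2 P155 libraries was sequenced, and 1 table of the whole series was used. STAR 2.5.3a, bcl2fastq, DESeq2 and mm10 are named in the submitters' processing notes, with no role; how reads were counted, by which annotation and strand, is not given in the sources used here. Each library's deposited value is log2(normalized reads + 1). The authors also deposited a log2 fold change with a p-value and FDR from a test that the table does not name. All values were whole multiples of 1 step per library (100% within 0.001), which gave back reads per gene.

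Because the values are log2, edgeR, which the design held for a raw count table, was not used. Instead, limma 3.58.1 in R 4.3.3 was fitted with a mean-variance trend to genes that reached a normalized value of 1 in 2 or more libraries, 27079 in all. Tests were two-sided, p-values were adjusted by Benjamini and Hochberg over all of these, with a threshold of 0.05. On this scale, differences of low genes are understated. Shares and ratios use recovered reads, with Wilson intervals at 95%. Gene lengths and coordinates are from GENCODE M21 (mm10), and promoters from RefSeq. From each list the 3 genes with the highest mean level were named, and the 5 genes nearest the mean pattern among those with a mean of at least 50 normalized reads, leaving out predicted genes, clones and pseudogenes; others named outside this rule are marked as such. Some genes of the lists are not reported here by name. The genes and lists were chosen with earlier results of these data known. Alternatives were a replicate block, leaving out each library, a pseudocount of 0.1, no filter, library size scaling, limma-voom and a robust variance prior. The fit was tested on simulated data.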

Additional observations from a re-analysis of the deposited data

How the results depend on the processing

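Of 60 differences of the 6 genes under the alternatives, 55 kept their direction and 5 turned, and none passed the threshold. In the 6 alternatives that kept all 4 libraries the direction held, with Slc4a1 from -1.68 to -1.49 and limma adjusted p from 0.771 to 0.906. Leaving out 1 library at a time, the log2 difference ran from -1.43 to 0.077 for Hba-a1, -1.45 to 0.13 for Hba-a2, -1.04 to 0.23 for Hbb-bs, -1.39 to 0.16 for Hbb-bt, -1.33 to 0.038 for Alas2 and -2.91 to -0.08 for Slc4a1, and the upper end came without P155 replicate 4 for the first 5 genes and without Scr replicate 4 for Slc4a1. The lone library of a group was then taken to vary like the others. With a library left out, the number of genes that passed in the whole table ran from 0 to 6, with 6 without P155 replicate 4, and the cause was not tested. The P155 minus Scr difference in the share of reads, -0.0628 percentage points, ran from -0.150 to 0.0247, was -0.0708 of non-mitochondrial reads, -0.0589 for the globins alone and -0.00391 for Alas2 and Slc4a1. The order of libraries was found in 6 of 6 genes under library size scaling too, an alternative chosen after seeing the data, as were those on the globins alone and on Alas2 and Slc4a1. With a replicate block limma passed 0 genes, with 1195 at an unadjusted p under 0.05. Deviations of same-numbered libraries had a correlation over 17107 genes of 0.0944, and no label says what a number marks, so the numbers were not treated as pairs. The depth of P155 replicate 5 limits genes with few reads, such as Gfi1b and Gata1.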

Other observations

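Other transcripts shared the high Scr replicate 4 and low P155 replicate 4 of the red cell genes. The 3 lists here were written after values had been seen, so their counts are a description, and what they have to do with the globin values was not tested. Of 13 genes of sensory neurons of the dorsal root ganglion, which lies beside the cord, 13 had a lower mean in P155, 6 had the library order of the globins, and 9 (69.2%) were highest in Scr replicate 4 and lowest in P155 replicate 4, beside 4.25% of all genes tested. The highest by mean level, Prph and Calca, did not have the order of the globins. Prph had log2 levels of 13.25 and 13.13 in Scr and 12.19 and 12.85 in P155. Calca had 12.65 and 12.58 in Scr and 11.30 and 11.98 in P155. In 4 of the 13 genes, Prph and Calca among them, both P155 libraries were below both Scr libraries, beside 19.6% of all genes tested. The sodium channel gene Scn10a, named outside the rule, had log2 levels of 11.47 and 10.37 in Scr and 9.95 and 10.65 in P155. Pirt, a regulator of sensory ion channels, had 12.06 and 10.90 in Scr and 10.16 and 11.30 in P155. Avil, among the genes nearest the globin pattern, is on this list too. Summed over it, normalized reads were 33058 and 23990 in Scr and 12477 and 22681 in P155. The authors' FDR was under 0.05 for 1 of these 13 genes, beside 0.631% of all genes tested. Of 4 genes of peripheral myelin, made by Schwann cells, 4 were highest in Scr replicate 4 and 3 lowest in P155 replicate 4. Of these, 0 had the library order of the globins. Both P155 libraries were below both Scr libraries in 4 of 4, beside 19.6% of all genes tested, so here the groups did not overlap.

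Granule genes of immature granulocytes, which are formed in bone marrow, had the library order of the globins in 4 of 4. Mpo, which encodes myeloperoxidase, had log2 levels of 10.73 and 8.02 in Scr and 5.51 and 8.63 in P155, and Elane, neutrophil elastase, 9.62 and 6.93 in Scr and 4.23 and 7.70 in P155. Both are also among the neutrophil genes above. In summed normalized reads the 4 genes had 3260 and 540 in Scr and 166 and 891 in P155, so Scr replicate 4 stood furthest from the rest in these sums.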
